A study of Mus musculus with 12 samples.

Results

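The caudal-related homeobox family of the mouse has 3 members, *Cdx1*, *Cdx2* and *Cdx4*, and all 3 were measured here among the 38907 genes to which the deposited transcript counts were assigned. Each is listed as 1 transcript with 3 exons, and they were taken as members by their gene symbols. Day 4 gastruloids, aggregates of embryonic stem (ES) cells that break symmetry and elongate in culture, spent their last day, starting on day 3, in one of 4 media. The medium held no glucose (0×, 0 mM), the usual amount (1×, 21.25 mM), an excess (3×, 63.75 mM), or the usual amount plus 5 mM of the glucose analog 2-DG (2-deoxy-D-glucose). All groups came from the ES line E14TG2a grown in 2i and LIF, were plated at 200 cells and received a pulse of the Wnt agonist CHIR on day 2, so that 1 line stands for all of them. Each of the 4 groups has 3 libraries of polyA RNA from pooled gastruloids, 1 each from ES cell passage 13, 15 and 16, and libraries of 1 passage are paired by it. Per library, 31896624 to 45947973 counts were assigned to transcripts.

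On the mouse assembly GRCm38.p6, *Cdx1* lies at chr18:61018862-61036199, *Cdx2* at chr5:147300900-147307249 and *Cdx4* at chrX:103321398-103330224. The exons of *Cdx1* sum to 1750 bases, those of *Cdx2* to 2261 bases and those of *Cdx4* to 1963 bases. By mean level over all libraries, *Cdx1* and *Cdx2* were above 93.2% and 93.1% of the 16962 genes tested, and *Cdx4* was above 71.9%.

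Cdx proteins are homeodomain transcription factors that act in the posterior embryo. Wnt, FGF and retinoic acid signals are known to switch them on, and they in turn bind to the Hox clusters and activate central and posterior Hox genes while the body axis elongates. *Cdx1* and *Cdx4* are known as direct Wnt targets of the primitive streak and tail bud. *Cdx2* is in addition a regulator of the trophectoderm and of the intestinal epithelium.

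RefSeq promoters of GRCm38.p6, 250 bases before to 50 bases after the start of the gene, were at hand for *Cdx2* and *Cdx4*. No promoter of *Cdx1* was at hand, so whether it holds the same letters could not be read. The sequences are written 5′ to 3′ on the strand of the gene. Capitals mark the longest run of letters that both hold, AATGCAAAT, and in *Cdx4* the letters CTTTG, the core of a TCF/LEF element, to which the nuclear effectors of Wnt signaling bind.
*Cdx2* (minus strand, chr5:147307200-147307499): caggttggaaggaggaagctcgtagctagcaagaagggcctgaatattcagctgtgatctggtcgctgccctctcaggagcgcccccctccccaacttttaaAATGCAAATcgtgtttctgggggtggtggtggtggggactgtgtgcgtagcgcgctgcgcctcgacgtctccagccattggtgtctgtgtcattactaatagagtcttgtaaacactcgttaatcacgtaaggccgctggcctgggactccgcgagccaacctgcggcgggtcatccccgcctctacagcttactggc
*Cdx4* (plus strand, chrX:103321148-103321447): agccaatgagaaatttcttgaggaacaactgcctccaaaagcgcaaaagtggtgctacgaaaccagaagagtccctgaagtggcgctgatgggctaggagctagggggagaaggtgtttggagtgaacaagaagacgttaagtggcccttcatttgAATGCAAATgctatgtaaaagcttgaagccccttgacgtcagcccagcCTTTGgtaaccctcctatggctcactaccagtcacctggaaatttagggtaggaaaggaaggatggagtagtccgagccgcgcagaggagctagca
The shared run of 9 letters holds the octamer ATGCAAAT known as the element of POU factors such as Oct4. It lies at −148 to −140 from the start of *Cdx2* and at −94 to −86 from that of *Cdx4*. Of 32851 promoters of the same length, 136 (0.414%) hold it on either strand. The run was chosen as the longest that both promoters hold, so this share does not test whether sharing it is unusual. The length of the longest run that other pairs of promoters share was not determined. CTTTG is at −46 to −42 in *Cdx4* and was not found in *Cdx2*, whereas 53.9% of all promoters hold it. The T-box core AGGTGT is at −139 to −134 in *Cdx4* alone (13.7% of all promoters). Neither window holds the longer TCF/LEF letters CTTTGAN (15.96% of all promoters), the Cdx core TTTAT (40.0%), the retinoic acid receptor hexamer AGGTCA (16.3%) or TATAAA (13.6%). Both strands were searched, and AATGCAAAT overlaps no match of another motif in these windows. These matches describe letters only, and no binding was measured.

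Levels are given as CPM, the count relative to the total of its library after scaling by TMM factors. *Cdx1* had 203, 135 and 202 CPM in the 1× glucose libraries of passage 13, 15 and 16 (179.6 ± 39.0, SD, n = 3). In 0× glucose it had 202, 129.9 and 201 CPM, in 3× glucose 214, 146 and 215 CPM, and in 2-DG 216, 171 and 239 CPM (209 ± 34.5, SD, n = 3). The passage 15 library was the lowest of its treatment in all 4 treatments, and each treatment overlapped with every other.

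*Cdx2* had 338, 135 and 148 CPM in 1× glucose in the same order of passages (207 ± 114, SD, n = 3). The values were 321, 119 and 117 CPM in 0× glucose and 349.8, 165 and 178 CPM in 3× glucose. In 2-DG they were 157, 96.6 and 121 CPM (125 ± 30.1, SD, n = 3). The passage 13 library was the highest in every treatment, and in 2-DG it lay at the level that passages 15 and 16 had in glucose. 2-DG did not overlap with 3× glucose, and it overlapped with 0× and 1× glucose.

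*Cdx4* was the gene with the widest range, 6.76-fold between its lowest and its highest library, against 3.62-fold for *Cdx2* and 1.84-fold for *Cdx1*. It had 112, 40.9 and 50.4 CPM in 1× glucose (67.9 ± 38.8, SD, n = 3), 99.9, 31.2 and 36.5 CPM in 0× glucose and 119, 52.5 and 58.9 CPM in 3× glucose. In 2-DG it had 20.1, 17.6 and 35.8 CPM (24.5 ± 9.84, SD, n = 3), which rests on 685, 647 and 1342 counts. All 3 libraries of 2-DG lay below all libraries of 1× and of 3× glucose, and the passage 16 library of 2-DG lay between the 0× glucose libraries of passages 15 and 16. The share of all genes without overlap in these comparisons was not determined, so for *Cdx2* and *Cdx4* a lack of overlap is description only. In bulk libraries, fewer cells that express a gene and less RNA of it per cell cannot be told apart.

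**Figure D1:**
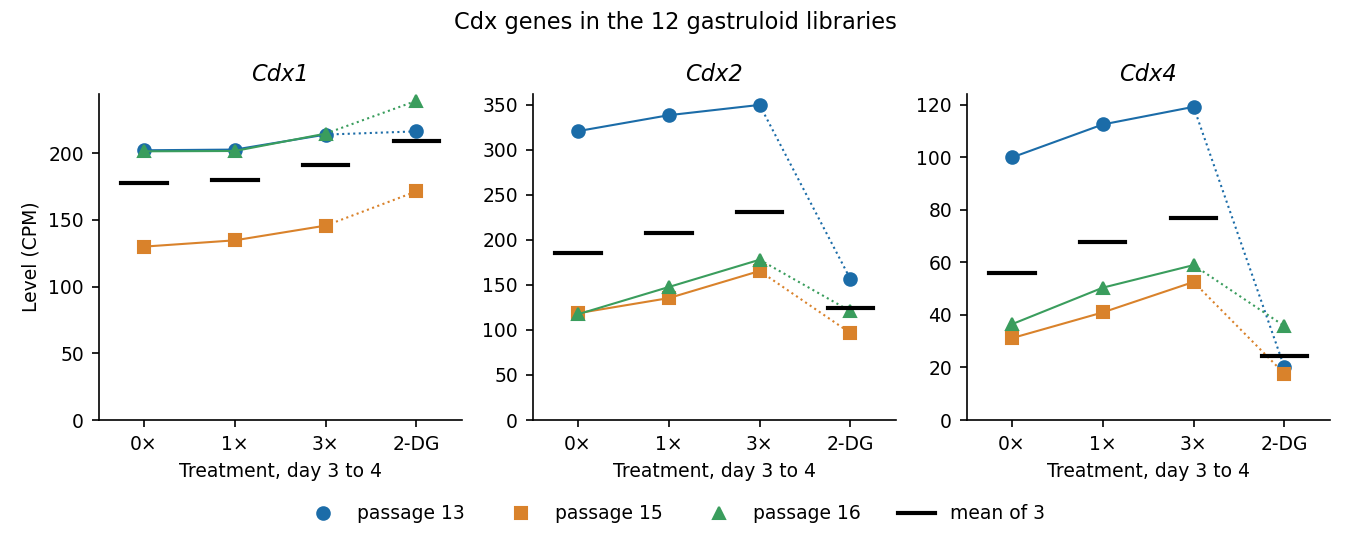
Level of each Cdx gene in CPM (vertical axis, from 0, its own scale per gene) in the 12 libraries by treatment (horizontal axis), with points joined by ES cell passage and bars at the mean of 3 libraries. Passage 13 stands above the others for *Cdx2* and *Cdx4* in glucose and falls to 157 and 20.1 CPM in 2-DG, while *Cdx1* is low in passage 15.

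Between 2-DG and 1× glucose, none of the 3 genes was called in the fit without a term for the passage, in which a gene is called at an adjusted p under 0.05 (edgeR's quasi-likelihood test, Benjamini-Hochberg over all genes tested). In this comparison 17.6% of the 16962 genes tested were called. The log2 fold change was 0.22 (95% interval −0.28 to 0.71, adjusted p = 0.564) for *Cdx1*, −0.73 (−1.79 to 0.33, adjusted p = 0.333) for *Cdx2* and −1.47 (−2.68 to −0.27, adjusted p = 0.0902) for *Cdx4*. DESeq2, used as another test, called none of them either, with an adjusted p of 0.0573 for *Cdx4*.

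With the passage as a block, which compares the libraries within passages, all 3 genes were called, where 41.3% of all genes were called. *Cdx1* rose by 0.23 on the log2 scale (95% interval 0.12 to 0.34, adjusted p = 0.0031), *Cdx2* fell by 0.62 (−0.94 to −0.29, adjusted p = 0.00701) and *Cdx4* fell by 1.30 (−2.01 to −0.58, adjusted p = 0.00835). As ratios of CPM within passage 13, 15 and 16, *Cdx1* in 2-DG was at 1.07, 1.27 and 1.19 times its level in 1× glucose. *Cdx2* was at 0.463, 0.713 and 0.818 times and *Cdx4* at 0.178, 0.431 and 0.71 times. Thus *Cdx1* was higher in 3 of 3 passages and *Cdx2* and *Cdx4* were lower in 3 of 3, with the largest decreases in passage 13 and the smallest in passage 16. Without 2-DG replicate 1, the passage 13 library, the blocked values were −0.39 for *Cdx2* and −0.80 for *Cdx4* (adjusted p = 0.00703 and 0.0032). Without the 4 libraries of passage 15 the blocked calls of all 3 genes were lost (adjusted p = 0.0691, 0.065 and 0.0876 for *Cdx1*, *Cdx2* and *Cdx4*), and without those of passage 16 that of *Cdx1* was lost (adjusted p = 0.0554).

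2-DG was also compared with the other glucose groups, with the same 2-DG libraries in each comparison, so that these comparisons are not independent. Against 0× glucose, without the block, 18.9% of all genes were called, and the Cdx genes were at 0.23, −0.57 and −1.19 (*Cdx1*, *Cdx2*, *Cdx4*), with adjusted p-values of 0.518, 0.451 and 0.155. Within passages, where 43.1% of all genes were called, *Cdx1* rose by 0.25 (adjusted p = 0.00192), *Cdx2* fell by 0.43 (adjusted p = 0.039) and *Cdx4* fell by 0.98 (adjusted p = 0.033). Here *Cdx2* was lower in 2 of 3 passages, since in passage 16 it had 121 CPM in 2-DG and 117 CPM in 0× glucose. The blocked call of *Cdx2* was lost without replicate 1 or 2 of either group (adjusted p = 0.0735 to 0.201). That of *Cdx4* was lost without 0× glucose replicate 1 or 2 or 2-DG replicate 2 (adjusted p = 0.0668 to 0.145), and its value moved to −0.47 without 2-DG replicate 1. Its value was −1.54 without 2-DG replicate 3. None of the 3 genes was called without the libraries of passage 15 (adjusted p = 0.0523, 0.15 and 0.16 for *Cdx1*, *Cdx2* and *Cdx4*), and without those of passage 13 *Cdx1* alone was called.

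Against 3× glucose, 15.2% of all genes were called without the block, and *Cdx4* was at −1.65 (95% interval −2.86 to −0.44, adjusted p = 0.0681). DESeq2 called it in this comparison (−1.65, adjusted p = 0.0318). Within passages, where 38.8% of all genes were called, *Cdx4* fell by 1.51 (adjusted p = 0.00406), *Cdx2* fell by 0.81 (adjusted p = 0.00163) and *Cdx1* rose by 0.14 (adjusted p = 0.0431). *Cdx2* and *Cdx4* were called in 6 of 6 fits that left out 1 library and *Cdx1* in 1 of 6, the one without 2-DG replicate 1. Without the libraries of passage 15, *Cdx2* was called (adjusted p = 0.0401) and *Cdx4* was not (adjusted p = 0.0718).

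**Figure D2:**
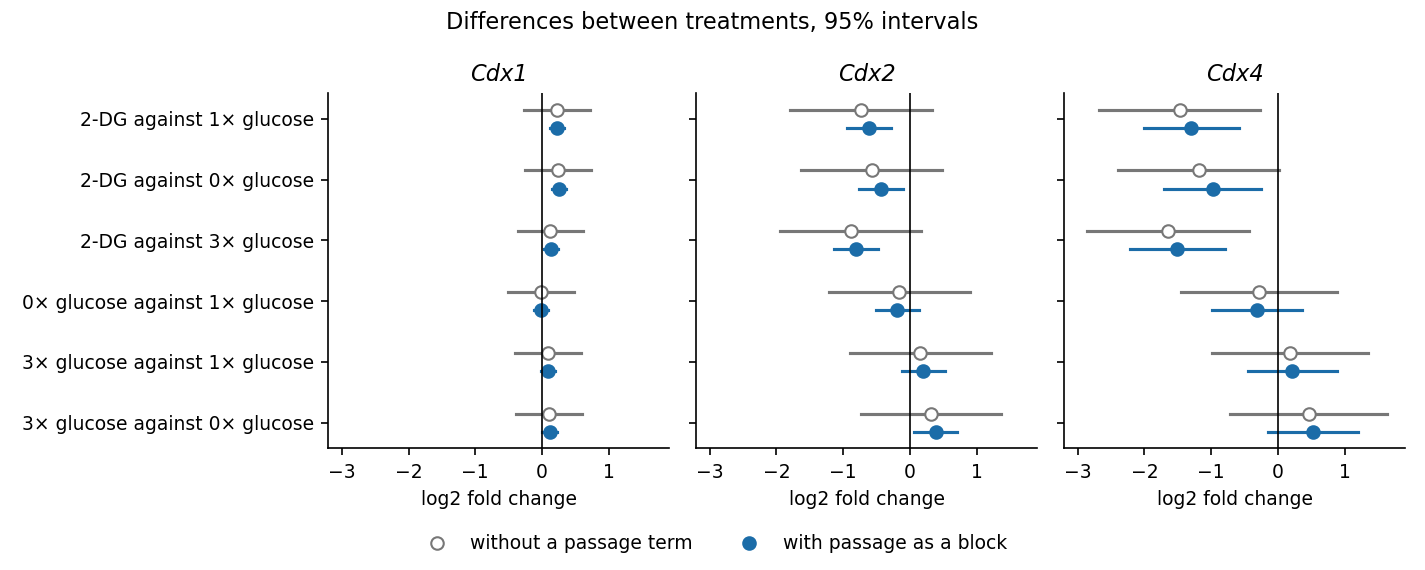
Fitted log2 fold change (horizontal axis) of each Cdx gene in the 6 comparisons of treatments (vertical axis), with 95% intervals, without a passage term (open points) and with passage as a block (filled points). The blocked intervals of the 3 comparisons of 2-DG exclude 0 for all 3 genes. Those of 3× against 0× glucose exclude 0 for *Cdx1* and *Cdx2*, although neither gene was called there.

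The glucose concentrations were compared in the same fits. As ratios of CPM within passage 13, 15 and 16, *Cdx4* in 3× glucose was at 1.19, 1.69 and 1.62 times its level in 0× glucose. *Cdx2* was at 1.09, 1.39 and 1.52 times and *Cdx1* at 1.06, 1.12 and 1.07 times. In each of the 3 passages, each of the 3 genes was lowest in 0× glucose and highest in 3× glucose among the glucose groups, although *Cdx1* in passage 13 had 202 CPM in 0× and 203 CPM in 1× glucose. None of these differences was called. The share of all genes in this order was not determined. The direction was not particular to the Cdx genes. In the blocked fits, 13 of 13 caudal epiblast and tail bud genes, read below, were lower in 0× than in 1× glucose, beside 8318 of 16962 genes. In 3× against 1× glucose 0 of the 13 were lower, beside 8152 of 16962 genes. For 0× against 1× glucose, the blocked log2 fold changes were −0.02, −0.19 and −0.32 (*Cdx1*, *Cdx2*, *Cdx4*) with adjusted p-values of 0.933, 0.711 and 0.771, and 0.0118% of all genes were called without and 0.0177% with the block. For 3× against 1× glucose they were 0.09, 0.20 and 0.21 with adjusted p-values of 0.905 to 0.951. In this comparison 0% of all genes, that is 0 of 16962, were called by edgeR both without and with the block, with 178 and 877 genes at an unadjusted p under 0.05, and DESeq2 called 2. From 0× to 3× glucose, *Cdx1* was at 0.11 (95% interval 0.01 to 0.22), *Cdx2* at 0.39 (0.06 to 0.71) and *Cdx4* at 0.53 (−0.15 to 1.21) with the block, with adjusted p-values of 0.286, 0.234 and 0.424, where 0.0118% of all genes were called without and 0.802% with the block. Without the libraries of passage 13, *Cdx2* was called here at 0.54 (adjusted p = 0.00747).

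To compare the 3 genes with each other, levels were divided by the exon length, since a longer transcript yields more fragments. In 1× glucose, the summed Cdx level was 323, 158 and 206 CPM per kilobase in passage 13, 15 and 16, and in 2-DG it was 203, 149.6 and 208 CPM per kilobase. In passage 13 the sum was thus lower in 2-DG, and in passages 15 and 16 it lay close to that of 1× glucose. *Cdx4* held 14.5% ± 2.86 of the sum in 1× glucose and 6.59% ± 1.92 in 2-DG (SD, n = 3). *Cdx2* held 38.7% ± 7.37 and 29.4% ± 4.29, and *Cdx1* held 46.9% ± 10.1 and 64.0% ± 2.69 (SD, n = 3). The order of *Cdx1* and *Cdx2* in glucose depended on the passage. In 1× glucose *Cdx2* held 46.4% of the sum in passage 13 and *Cdx1* 35.9%, whereas in passage 16 *Cdx2* held 31.7% and *Cdx1* 55.9%. *Cdx4* was the lowest of the 3 per kilobase in every library. In 2-DG, *Cdx1* held 60.9% to 65.6% and was the highest of the 3 in all 3 passages.

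**Figure D3:**
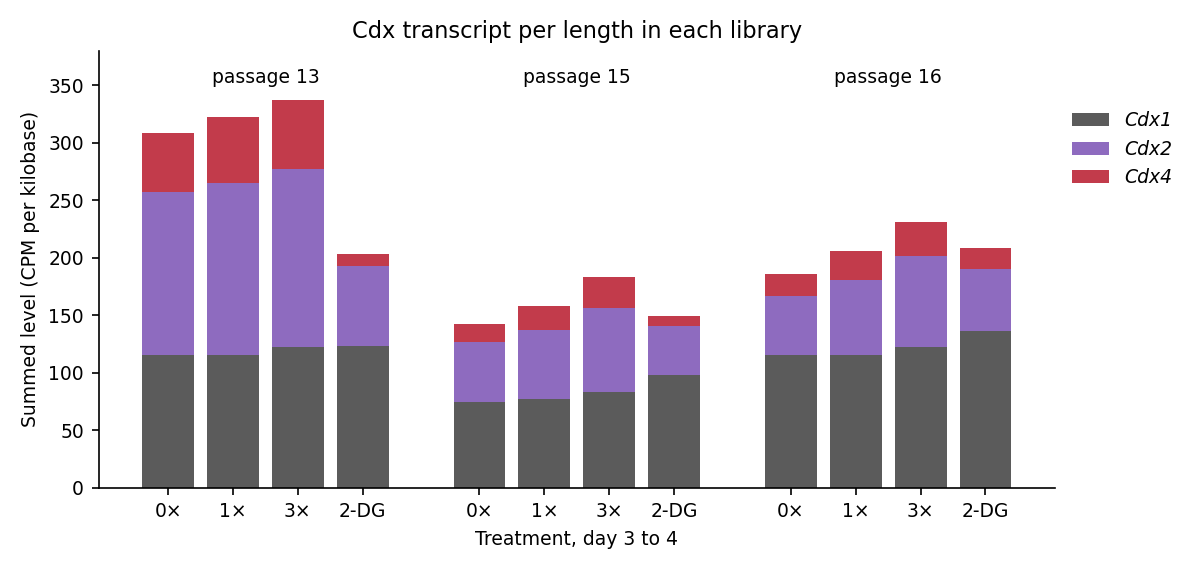
Summed Cdx level in CPM per kilobase of exon (vertical axis, bars from 0) in each library, split by gene and ordered by passage and treatment (horizontal axis). In 2-DG the *Cdx4* and *Cdx2* segments are shorter than in 1× glucose of the same passage and the *Cdx1* segment is not.

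The ratios between the Cdx genes within a library were compared between 2-DG and 1× glucose. The log2 ratio of *Cdx4* to *Cdx2* counts was −1.59, −1.72 and −1.55 in the 1× glucose libraries of passage 13, 15 and 16 and −2.96, −2.45 and −1.76 in those of 2-DG, a difference of −0.77. For *Cdx2* to *Cdx1* it was 0.74, 0.01 and −0.45 in 1× glucose and −0.47, −0.83 and −0.98 in 2-DG, a difference of −0.86. For *Cdx4* to *Cdx1* the difference was −1.63. All 3 ratios were lower in 2-DG in 3 of 3 passages and none overlapped between the groups, and each had a two-sided exact permutation p of 0.1, the smallest that 3 libraries against 3 can give. This test leaves the pairing by passage unused and cannot fall under 0.05. For other pairs of genes the share without overlap was not determined, so that the unequal change of the 3 genes is description only.

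ES cell passage was compared with the treatment as a covariate. The labels give the passage only, so that passage and any other difference between the 3 experiments cannot be told apart. Of the sum of squares of log2 CPM over the 12 libraries, passage accounted for 84.8% in *Cdx1*, 67.5% in *Cdx2* and 29.1% in *Cdx4*, and treatment for 12.3%, 25.0% and 52.2%. Passage 15 against passage 13 called 41.7% of all genes, and all 3 Cdx genes were lower in passage 15, *Cdx1* by a log2 fold change of −0.53 (adjusted p = 9.78e-06), *Cdx2* by −1.15 (adjusted p = 7.57e-05) and *Cdx4* by −1.23 (adjusted p = 0.00451). The call of *Cdx4* was lost with the most abundant transcript of each gene alone (adjusted p = 0.0689) and with no covariate for the treatment (adjusted p = 0.0711). *Cdx4* has 1 transcript, so its own counts are the same in the first of these settings. The common dispersion, the spread that the fit estimates over all genes, was 0.280 there against 0.0063 in the main fit. Passage 16 against passage 13 called 40.2% of all genes. *Cdx2* was lower in passage 16 at −1.01 (adjusted p = 0.000168), and *Cdx1* was at 0.03 (95% interval −0.06 to 0.12, adjusted p = 0.562). *Cdx4* was called at −0.78 (adjusted p = 0.0401), and this call was lost in 6 of 8 fits that left out 1 library, those without any 1 of the 6 glucose libraries (adjusted p = 0.112 to 0.143). Its value moved to −1.13 without 2-DG replicate 1. This fit takes 1 passage difference for all treatments. From passage 13 to passage 16, however, *Cdx4* fell in each glucose group (from 112 to 50.4 CPM in 1× glucose) and rose in 2-DG (from 20.1 to 35.8 CPM). Passage 16 against passage 15 called 4.2% of all genes. *Cdx1* was higher in passage 16 by 0.56 (adjusted p = 0.000131), and *Cdx2* (0.14, 95% interval −0.14 to 0.43) and *Cdx4* (0.45, −0.16 to 1.06) were not called.

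The 2-DG difference was also fitted within each passage, against its 3 glucose libraries as 1 group, a comparison added after seeing the data. Each passage has 1 library of 2-DG, which was assumed to vary like the glucose libraries. Those 3 glucose libraries differ in their glucose concentration. The spread behind the intervals and calls is thus one between concentrations and not between replicates of a condition. In passage 13, where 27.5% of all genes were called, *Cdx4* was at −2.46 (95% interval −3.14 to −1.79) and *Cdx2* at −1.10 (−1.56 to −0.65), both called, and *Cdx1* at 0.07 (−0.07 to 0.21), not called. In passage 15 (25.4% of all genes called), *Cdx4* was at −1.24 (−1.89 to −0.58) and *Cdx1* at 0.33 (0.18 to 0.47), both called, and *Cdx2* at −0.53 (−0.98 to −0.09, adjusted p = 0.078). In passage 16 (18.6% of all genes called), *Cdx1* was called at 0.22 (0.08 to 0.36), and *Cdx2* (−0.29, −0.73 to 0.15) and *Cdx4* (−0.45, −1.04 to 0.15) were not.

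The difference between these effects was tested as an interaction, with the same spread between glucose concentrations and the same limit. The effect on *Cdx4* in passage 16 was 2.01 above that in passage 13 on the log2 scale (95% interval 1.16 to 2.87, adjusted p = 0.0501), just over the threshold, and it was called in 4 of 9 fits that left out 1 glucose library (adjusted p = 0.023 to 0.117). In this contrast 0.584% of all genes were called. For *Cdx2* the same difference was 0.81 (0.20 to 1.42, adjusted p = 0.289) and for *Cdx1* 0.15 (−0.05 to 0.35, adjusted p = 0.649). Between passages 15 and 13 the effect on *Cdx4* differed by 1.23 (0.34 to 2.11, adjusted p = 0.339), where 0.2% of all genes were called, and between passages 16 and 15 by 0.79 (−0.07 to 1.65, adjusted p = 0.994), where 0.0531% were called. No Cdx gene was called in these contrasts.

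**Figure D4:**
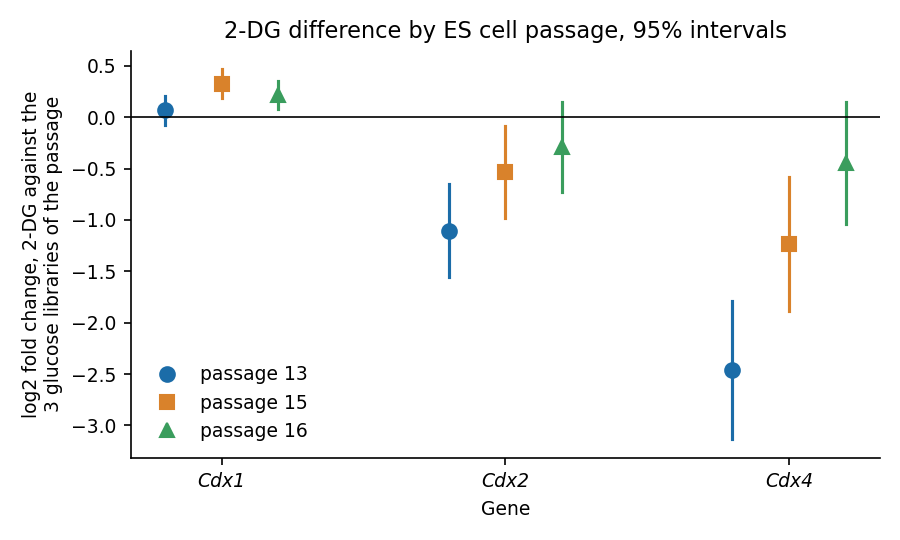
Fitted log2 fold change of 2-DG against the 3 glucose libraries of the same passage (vertical axis) for each Cdx gene (horizontal axis), with 95% intervals. The spread behind the intervals is that between libraries of different glucose concentrations. For *Cdx4* the values are −2.46, −1.24 and −0.45 in passages 13, 15 and 16, and for *Cdx1* all 3 are above 0.

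The signals known to act upstream of Cdx genes were taken from lists written from general knowledge. Of 13 Wnt, FGF and BMP ligands and Wnt effectors, all were tested, 1 was called higher and 3 were called lower in 2-DG against 1× glucose without the block, beside 9.11% and 8.51% of all genes, and their median log2 fold change was −0.01 (0.00 over all genes). *Wnt3a*, a ligand of the tail bud, fell from 90.8, 35.3 and 40.8 CPM in passage 13, 15 and 16 to 6.97, 6.51 and 11.8 CPM, a log2 fold change of −2.72 (adjusted p = 0.00635). *Fgf17* fell from 28.7 ± 17.0 to 4.30 ± 0.524 CPM (SD, n = 3; adjusted p = 0.00573) and *Tcf7*, a nuclear effector of Wnt signaling, fell by 0.36 on the log2 scale (adjusted p = 0.0153). *Wnt3* rose by 0.94 (adjusted p = 0.0331) but had only 0.71 to 1.15 CPM in 1× glucose. *Ctnnb1*, which encodes beta-catenin, was the most abundant of the uncalled genes and was at −0.01 (adjusted p = 0.95). Of 6 genes of retinoic acid synthesis, breakdown and receptors, 1 was called lower and 0 higher, beside 8.51% and 9.11% of all genes. It was *Cyp26a1*, which breaks retinoic acid down, at −1.44 (adjusted p = 0.028). The synthesis enzyme *Aldh1a2* was at −0.17 (adjusted p = 0.867).

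Hox genes of paralog groups 5 to 9, which Cdx factors are known to activate, were read beside those of groups 1 to 4. Of 15 genes of groups 5 to 9, all tested, 9 were called lower and 0 higher, beside 8.51% and 9.11% of all genes, with a median log2 fold change of −1.39. With the block 13 were called lower and 1 higher, beside 20.2% and 21.1% of all genes. Of 12 genes of groups 1 to 4, 4 were called lower and 0 higher, with a median of −0.31, and with the block 7 were called lower and 1 higher, beside the same shares of all genes. *Hoxd9* fell from 6.41, 10.5 and 10.1 CPM to 0.117, 0.681 and 0.4 CPM, at most 25 counts per library (log2 fold change −4.47, adjusted p = 0.000219), and *Hoxa9* (−3.08), *Hoxa6* (−1.42) and *Hoxb6* (−0.73) were called as well. *Hoxb9*, the most abundant uncalled gene, went from 439, 257 and 236 CPM to 206, 118 and 134 CPM (−1.03, adjusted p = 0.0666, and −1.01 with an adjusted p of 5.77e-06 with the block). In the lower paralog groups *Hoxb3*, *Hoxd4*, *Hoxb1* and *Hoxa2* were called with values of −0.29 to −0.37. Of 12 genes of groups 10 to 13 only *Hoxa10* and *Hoxd13* passed the filter on low counts. *Hoxa10* fell from 0.637 ± 0.0284 to 0.195 ± 0.0641 CPM (SD, n = 3; adjusted p = 0.00788), and *Hoxd13* was at 0.68 (adjusted p = 0.401). Whether the groups of Hox genes differ was not tested.

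Of 6 genes other than Hox that are described as Cdx targets, 3 were called lower and 0 higher, beside 8.51% and 9.11% of all genes. The median over the list was −0.84. Those called were *T/Bra*, *Wnt3a* and *Cyp26a1*, of which *Wnt3a* and *Cyp26a1* also stand in the lists of inputs above. *Dll1*, a Notch ligand and the most abundant of the rest, was at −0.03 (adjusted p = 0.939). *T/Bra*, the mesoderm regulator Brachyury, fell from 322, 167 and 187 CPM to 64.6, 67.1 and 96.1 CPM (log2 fold change −1.57, adjusted p = 0.0136). As for *Cdx4*, its effect of 2-DG was smaller in passage 16 than in passage 13, by 1.36 on the log2 scale, with an adjusted p of 0.0135 in the interaction. This p rests on 1 library of 2-DG per passage, whose spread is taken from glucose libraries of different concentrations. It measures no variation among 2-DG libraries or among replicates of a glucose group. *Cyp26a1* (1.30, adjusted p = 0.0209), *Fgf17* (1.63, adjusted p = 0.0209) and *Hoxa9* (2.18, adjusted p = 0.0298) were under the threshold in this contrast too, with the same limit, and *Wnt3a* (1.85, adjusted p = 0.113) was not.

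The cells in which Cdx genes are best known were read by their markers, some of which also stand in the lists above. Of 13 caudal epiblast and tail bud genes, all were tested, 5 were called lower and 0 higher, beside 8.51% and 9.11% of all genes, with a median of −0.98. With the block 8 were called lower and 2 higher, beside 20.2% and 21.1% of all genes. *Evx1*, a homeobox gene of the primitive streak, fell by 2.59 (adjusted p = 0.00814), and *Tbx6*, a regulator of presomitic mesoderm, was at −0.64 (adjusted p = 0.0714). The summed level of the list was 868 to 1599.6 CPM in 1× glucose and 596 to 777 CPM in 2-DG. In passage 15 against passage 13, 10 of these 13 genes were called lower and 0 higher, beside 20.9% and 20.8% of all genes. In passage 16 against passage 13, 7 were called lower and 2 higher, beside 19.7% and 20.4% of all genes. The part of these cells in the levels of *Cdx2* and *Cdx4* was not tested.

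Of 9 neural progenitor markers, 4 were called higher and 1 lower in 2-DG, beside 9.11% and 8.51% of all genes, and the median was 0.52. Among them *Irx3* (from 11.6 ± 3.97 to 43.5 ± 17.9 CPM, SD, n = 3, adjusted p = 0.00493), *Sox1* (1.84, adjusted p = 0.0185) and *Ncam1* (0.45, adjusted p = 0.0101) rose, *Nkx6-1* fell by 1.43 (adjusted p = 0.00517), and *Sox2* was at 0.52 (adjusted p = 0.595). The blocked fit called 6 of the neural markers higher and 1 lower, beside 21.1% and 20.2% of all genes. Of 9 naive pluripotency markers of ES cells, 1 was called higher and 0 lower without the block, beside 9.11% and 8.51% of all genes. The blocked fit called 5 of them higher and 0 lower, beside 21.1% and 20.2%. The 1 called without the block was *Tfcp2l1*, which rose by 1.05 (adjusted p = 0.0244). *Pou5f1*, which encodes Oct4, was at 33.3 ± 8.49 CPM without and 48.8 ± 5.92 CPM with 2-DG (SD, n = 3; 0.55, adjusted p = 0.133, and 0.58 with an adjusted p of 0.000232 with the block). The summed levels were 194 to 331 CPM in 1× glucose and 292 to 509 CPM in 2-DG for the neural list, and 39.4 to 53.8 and 62.3 to 77.7 CPM for the pluripotency list.

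*Cdx1* and *Cdx2* can also stem from other tissues, so markers of these were read. The 7 intestinal genes summed to 1.21 to 1.71 CPM in 1× glucose and 1.96 to 2.32 CPM in 2-DG. *Fabp2*, *Sis* and *Guca2a* were at 0 in all 12 libraries. None of the 3 tested genes was called, beside 17.6% of all genes, with *Lgals4* at 0.60 (adjusted p = 0.11, and 0.0323 with the block). The part of other tissues in the Cdx levels was not tested. Trophoblast markers summed to 19.5 to 29.5 CPM in 1× glucose and 30.8 to 40.2 CPM in 2-DG. Of the 8 tested, 2 were called higher and 0 lower, beside 9.11% and 8.51% of all genes. These were *Tfap2c* (1.58, adjusted p = 0.00445) and *Krt18* (0.87, adjusted p = 0.0244), both of which other epithelia express as well. *Krt8* was at 0.42 (adjusted p = 0.359), and *Elf5*, which defines the lineage, was too low to be tested. The blocked fit called 4 of the 8 trophoblast markers higher and 0 lower, beside 21.1% and 20.2% of all genes. Endoderm markers summed to 41.6 to 210.0 CPM in 1× glucose and 51.1 to 99.4 CPM in 2-DG. Of the 10 genes, all tested, 2 were called higher and 1 lower, beside 9.11% and 8.51% of all genes, with a median of −0.61. With the block 4 were called higher and 3 lower, beside 21.1% and 20.2% of all genes. *Krt18*, named above, was among the higher, *Trh* fell by 1.26 (adjusted p = 0.0366), and *Cer1*, the most abundant uncalled one, was at −1.45 (adjusted p = 0.608). Of the other ParaHox genes, *Gsx2* was at 0 in every library, *Gsx1* was too low to be tested, and *Pdx1*, a regulator of the pancreas, was at 1.14 on the log2 scale (adjusted p = 0.323), with 0.251 ± 0.125 CPM in 1× glucose and 0.562 ± 0.253 CPM under 2-DG (SD, n = 3).

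**Figure D5:**
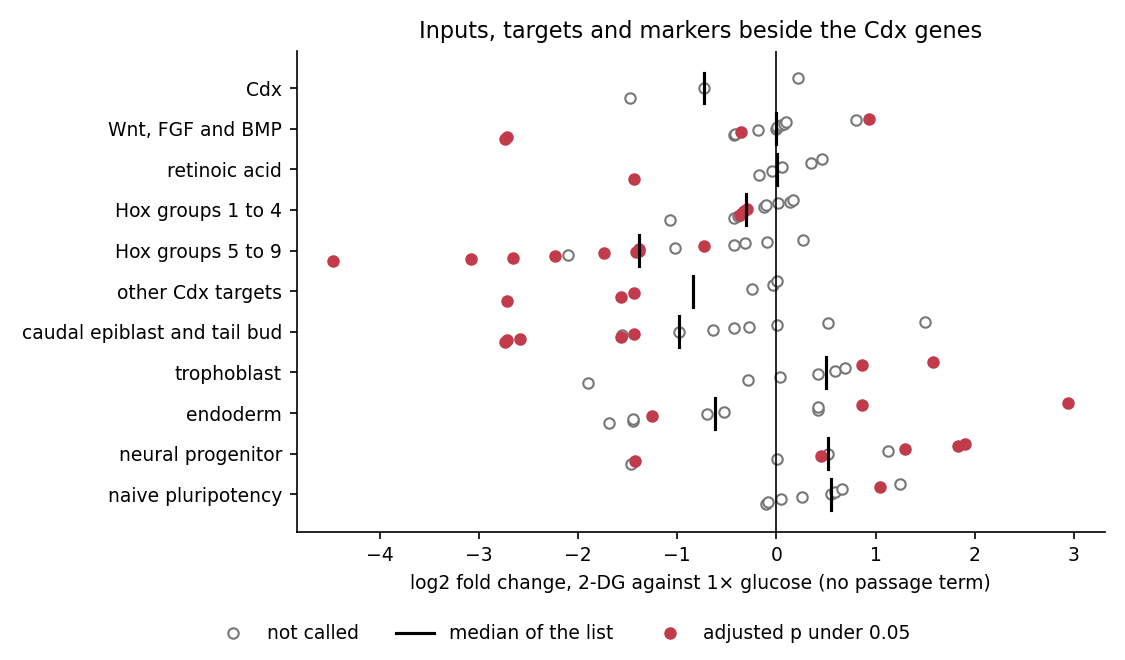
Fitted log2 fold change in 2-DG against 1× glucose without a passage term (horizontal axis) for each tested gene of the lists (vertical axis), filled where the adjusted p is under 0.05, with a line at the median of each list. Hox genes of groups 5 to 9 reach from −4.47 to 0.27 with a median of −1.39, and those of groups 1 to 4 have a median of −0.31.

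Genes with the pattern most like that of each member were found by the root mean square difference of log2 CPM over the 12 libraries, each gene centred on its mean. For *Cdx4* these were *Cyp26a1* (0.24), *Gm13790* (0.24), *Hoxa7* (0.25), *T/Bra* (0.25) and *Rab20* (0.27), against its own SD of 0.90. For *Cdx2*, with an SD of 0.64, they were *Lhpp* (0.10), *Cdc42ep5* (0.13), *Chd3* (0.13), *Mfsd2a* (0.14) and *Nkx1-2* (0.14), a homeobox gene of the caudal epiblast. For *Cdx1*, with an SD of 0.29, they were *Dcxr* (0.11), *Jade2* (0.12), *Ppfia4* (0.12), *Ahrr* (0.12) and *Echdc2* (0.13). The members were less like each other, with 0.41 between *Cdx2* and *Cdx4*, 0.58 between *Cdx1* and *Cdx2* and 0.84 between *Cdx1* and *Cdx4*. A gene of small variation is close to any other such gene by this measure, and all values come from the same libraries.

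The nearest genes on either side of each member were read as well. *Urad*, an enzyme of uric acid breakdown whose gene lies 7.74 kb from *Cdx2*, fell from 6.21, 2.24 and 1.53 CPM to 0.293, 0.191 and 0.213 CPM, at most 10 counts per library (log2 fold change −3.83, adjusted p = 0.0174). It was also lower in passage 15 (−1.62, adjusted p = 7.92e-05) and passage 16 (−2.06, adjusted p = 2.12e-05) than in passage 13, as *Cdx2* was, in contrasts that called 41.7% and 40.2% of all genes. Of the other neighbours, *Gm35112* (−0.89 and −1.15) and *Chic1* (−0.60 and −0.61) were called lower in both passages than in passage 13. *Slc6a7* was called lower (−1.21) and *Camk2a* higher (0.89) in passage 15, and neither was called in passage 16. On the other side of *Cdx2*, the noncoding *Gm35112* was at −0.92 (adjusted p = 0.282) and *Mir7k* was too low to be tested. *Pdgfrb*, a growth factor receptor 8.93 kb from *Cdx1*, fell by 0.33 (adjusted p = 0.0141). *Gm52351*, which overlaps an end of *Cdx1* and whose reads may not all be told apart from it, since the use of strand in counting is not stated, had 8.77 CPM on average and was at 0.06 (adjusted p = 0.898), *Slc6a7* was at 0.28 (adjusted p = 0.755), *Camk2a* was at 0.50 (adjusted p = 0.421), and *Csf1r* was too low to be tested. *Chic1*, 26.2 kb from *Cdx4*, was at −0.22 (adjusted p = 0.657). Against the 3 glucose libraries of the same passage, *Chic1* in 2-DG was at −0.63, −0.13 and 0.13 in passage 13, 15 and 16, from 1 library of 2-DG each. *4930519F16Rik* on the other side was too low to be tested. The neighbouring pseudogenes *Gm29778*, *Gm19200* and *Gm9516* were not analysed here.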

How the data were processed

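PolyA RNA of 12 day 4 gastruloid libraries was sequenced with a directional kit. Per the labels and the methods, the authors trimmed the reads with Trim Galore, aligned them with HISAT2 to mm10, removed duplicates with Picard and apportioned them with StringTie. Versions, annotation and strand settings are not given in the sources used here. The authors deposited estimated counts of 120312 RefSeq transcripts per library, all whole numbers, so that rounding changed nothing. They also deposited tables of fold changes and p-values of their own comparisons, which were not used.

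Counts were summed by symbol with the RefSeq table of GRCm38.p6, and 10 transcripts (0.0191% of the counts) without a gene were left out. Totals per library were 31896624 to 45947973 counts, and all Cdx counts were at least 647. The main model was edgeR's quasi-likelihood fit (version 4.0.16 under R 4.3.3, with TMM and filterByExpr) of all 4 groups, with two-sided tests and no passage term. Of 26378 genes with a count, 16962 were tested. P-values were adjusted by Benjamini-Hochberg over all genes of a comparison. Passages were compared with the treatment as a covariate. The passage in the labels pairs the libraries: deviations from the group means correlated at 0.0963 to 0.623 in the 18 pairs of 1 passage and by at most 0.191 where neither passage nor treatment was shared. At most 9.67% of transcripts with a mean of 10 counts or more had equal values in any pair of libraries, so none was taken as a duplicate. Log2 ratios between Cdx genes used count + 0.5. Levels per kilobase used exon lengths of GENCODE M21.

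Named genes are the Cdx genes, from each list up to 4 genes called in 2-DG against 1× glucose and the most abundant uncalled one, the 5 genes most like each member, and the nearest 2 genes on either side. The members and lists were chosen with earlier results of these data known. Alternatives were size factors by the median of ratios, a passage block, no filter, DESeq2 1.42.0, the most abundant transcript alone, only the groups compared, and leaving out libraries. The fits were tested on simulated counts. Labels do not say whether cultures beyond the passage were separate, and p-values measure the spread between these libraries. Some genes that this rule would name are not reported here.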

Additional observations from a re-analysis of the deposited data

Results flagged for a closer look

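Within the 4 libraries of passage 13, the level of *Cdx2* in 2-DG, 157 CPM, stood apart from the others, which had 321 CPM in 0×, 338 CPM in 1× and 349.8 CPM in 3× glucose. Its gap to the nearest library was 0.849 of the whole range, above the critical value of Dixon's test for 4 values. This set of 4 holds 1 library per treatment, whereas the test takes the 4 values as replicates, so its usual rate of 5% does not apply. Among the 9 such sets examined, the mark restates the 2-DG difference of *Cdx2* in passage 13 given above. For *Cdx4* in passage 13 the same gap was 0.806 of the range, below the critical value.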

How the results depend on the processing

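With the passage as a block, which pairs the libraries, *Cdx1*, *Cdx2* and *Cdx4* were called in 2-DG against 0× glucose (0.25, −0.43 and −0.98 on the log2 scale), 1× glucose (0.23, −0.62 and −1.30) and 3× glucose (0.14, −0.81 and −1.51), and in no comparison without the block by edgeR with all 4 groups; the block changed no other call of a Cdx gene, and the 8 gene lists whose count of calls it moved by over 1.5 times had more calls. DESeq2 and a fit of the 2 groups alone called *Cdx4* against 3× glucose (−1.65 each). The remaining values were chosen after seeing the data, except those without the block. Blocked and without passage 13, calls were 0.32, 0.30 and 0.20 for *Cdx1* against 0×, 1× and 3× glucose, −0.38 and −0.66 for *Cdx2* and −0.81 and −1.10 for *Cdx4* against 1× and 3× glucose, and 0.54 for *Cdx2* between 3× and 0× glucose. Without passage 15 the only call was −0.83 for *Cdx2* against 3× glucose, and without passage 16 calls were 0.25 for *Cdx1* against 0× glucose, −0.67, −0.80 and −0.96 for *Cdx2* and −1.59, −1.85 and −2.05 for *Cdx4* against 0×, 1× and 3× glucose.

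With each library left out in turn, with or without the block, 2-DG against 0× glucose ranged from 0.0558 to 0.36 for *Cdx1*, −0.82 to 0.0807 for *Cdx2* and −1.56 to −0.46 for *Cdx4*. Against 1× glucose the ranges were 0.0392 to 0.34, −0.97 to −0.18 and −1.87 to −0.80, and against 3× glucose −0.0323 to 0.25, −1.09 to −0.46 and −2.07 to −1.02. For 0× against 1× glucose they were −0.19 to 0.16, −0.82 to 0.39 and −1.02 to 0.29, for 3× against 1× glucose −0.086 to 0.25, −0.28 to 0.71 and −0.29 to 0.75, and for 3× against 0× glucose −0.0755 to 0.27, −0.11 to 0.97 and −0.0034 to 1.19, with none of the glucose comparisons called. The difference of the *Cdx4* effect between passages 16 and 13 ranged from 1.85 to 2.18.

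Between passages 16 and 13, *Cdx1* ranged from −0.0203 to 0.0557 and was at −0.0067 without the 2-DG libraries, and *Cdx4* ranged from −1.13 to −0.58 and was not called with DESeq2 (−0.74), the most abundant transcript alone (−0.73), no treatment covariate (−0.95) or no filter (−0.79). Between passages 15 and 13, *Cdx4* was not called with the most abundant transcript alone (−1.20) or no covariate (−1.31). Median-of-ratios factors changed no call. Where a call was lost, the cause was not tested, although leaving out a passage leaves 8 libraries. The most abundant transcript alone leaves the counts of the Cdx genes as they are, since each has 1 transcript, and changes those of other genes. The Cdx values rest on 647 counts or more per library and on 3 libraries per group.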
